A study of Mus musculus with 4 samples.

Results

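Oligodendrocyte precursor cells (OPCs) were examined in single-nucleus RNA sequencing of the lateral septum, a forebrain region, of mice with different immune backgrounds. A nucleus was taken as an OPC when Pdgfra, Cspg4 and Vcan together had at least 3 unique molecular identifiers (UMIs, the counted RNA molecules) and at least 0.1% of its UMIs, Pdgfra had at least 1, Enpp6 and Gpr17 together had fewer than 2, and Mki67 and Top2a had 0. This rule selected 1422 of 55660 nuclei (2.55%) that had 200 to 6000 genes and under 2% mitochondrial UMIs. Each of the 4 libraries pooled lateral septum tissue of 3 male mice, aged 6 to 8 weeks by the labels. The paper instead gives 8 weeks as the age at purchase. C57J 1 and C57J 2 came from C57BL/6JNifdc mice, nude from BALB/c nude mice, which lack mature T cells, and BALB/c from BALB/c mice. No library received a treatment, C57J 1 is labelled batch 1 and the other libraries batch 2. Because mice were pooled, the libraries and not the mice were the replicates, and nude and BALB/c had 1 library each.

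OPCs are the dividing, process-bearing glia from which oligodendrocytes arise, and in the adult brain they remain spread through grey and white matter. They respond to platelet-derived growth factor through Pdgfra, carry the proteoglycan NG2 (Cspg4), and receive synaptic input from neurons through glutamate and GABA receptors. On the way to myelination they pass through a short premyelinating stage marked by Enpp6 and Gpr17, in which the OPC genes decline before the myelin genes rise.

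C57J 1 held 385 OPCs, C57J 2 held 340, nude 393 and BALB/c 304. Their UMIs summed to 1507579, 975988, 1148432 and 1733923, and the median per OPC was 3478, 2692, 2681 and 5188.5 UMIs in the same order. BALB/c was thus the most deeply sequenced library per nucleus. Between 29 and 63 barcodes were shared by any pair of libraries, and 0 of these belonged to OPCs in both.

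The genes of the rule are given as a description. Every OPC held Pdgfra by construction, with a mean per nucleus of 3.05 UMIs for C57J 1, 2.54 for C57J 2, 2.65 for nude and 6.27 for BALB/c. Vcan was found in 91.5 to 96.4% of OPCs and Cspg4 in 57.8 to 78.0%, the highest share of both lying in BALB/c. At the lower edge of the rule, the OPCs with exactly 3 marker UMIs (19, 37, 35 and 4 nuclei in C57J 1, C57J 2, nude and BALB/c) had 3468, 4695, 4816 and 183 CPM (a gene's summed UMIs scaled to the same total in every library and class) of Lhfpl3, an OPC-enriched membrane protein gene. OPCs with 4 or more had 5270, 5379, 4982 and 4414 CPM. Nuclei just outside, with 2 marker UMIs (15, 29, 15 and 2 nuclei), had 1729, 2618, 2319 and 959 CPM.

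The label was checked on 15 OPC markers that the rule did not use, in nuclei thinned to 1500 UMIs. Nuclei with fewer UMIs were left out, which by library (C57J first, then nude, then BALB/c) were 0, 10, 11 and 0 OPCs, 0, 0, 0 and 1 newly forming oligodendrocytes, 80, 182, 205 and 1 mature oligodendrocytes and 59, 169, 119 and 5 astrocytes. The median OPC held a UMI of 9, 9, 9 and 10 of these 15 genes in C57J 1, C57J 2, nude and BALB/c, against 7, 6, 6 and 6 in newly forming oligodendrocytes, 2 to 3 in mature oligodendrocytes and 4 to 5 in astrocytes. At least 3 of the 15 were found in 99.2, 99.4, 100 and 97.0% of OPCs and in 96.6, 92.9, 100 and 100% of newly forming oligodendrocytes, so this share does not separate these classes. In mature oligodendrocytes it was 22.5 to 57.3%. In astrocytes the share was 85.6 to 92.7%, and 1 of the 15, Ptprz1, a receptor phosphatase and proteoglycan gene, had 1417 to 1677 CPM there against 2250 to 2369 CPM in OPCs.

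Markers of other cell types were found in the summed OPC counts, and the source of these UMIs was not tested. The 4 neuron markers Snap25, Syt1, Rbfox3 and Snhg11, none at 0, summed to 2643, 2373, 2567 and 1538 CPM in OPCs of C57J 1, C57J 2, nude and BALB/c, against 8761, 8381, 8472 and 7740 CPM in nuclei that met the neuron rule. The most abundant was Snhg11 in C57J 1, at 1031 CPM, and Syt1 in the other libraries. The 9 astrocyte markers, none at 0 and led by Slc1a2, summed to 1808, 1142, 1406 and 1144 CPM. The 5 microglia markers, led by P2ry12 and none at 0, stayed between 28.3 and 80.9 CPM, and the 5 vascular markers between 3.48 and 13.3 CPM. Leaving out the 172 OPCs that also met the rule of another class gave 46 called genes in the comparison of backgrounds, 42 of them among the 53 called with these OPCs in place. The part of RNA from other cells in the OPCs that remained was not tested. The 6 fibroblast markers summed to 5.97, 3.07 and 1.74 CPM in C57J 1, C57J 2 and nude and to 50.8 CPM in BALB/c, where Slc6a13 led with 19.6 CPM and none was at 0. In C57J 2 and nude, Col1a1, Col3a1, Dcn, Lum and Slc6a13 were all at 0. Of the OPCs, 1, 0, 0 and 10 also met the fibroblast rule, and leaving them out gave 55 called genes in the comparison of backgrounds, against 53 with them. Predicted doublets made up 52, 22, 33 and 37 of the OPCs.

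The share of OPCs among all nuclei was 2.60% for C57J 1 (95% exact interval 2.35 to 2.86%) and 2.42% for C57J 2 (2.17 to 2.68%). For nude it was 2.68% (2.42 to 2.95%), and for BALB/c 2.52% (2.24 to 2.81%). All 4 intervals overlapped. With 1 library of nude and 1 of BALB/c no test over samples was made, and the intervals cover counting error only. The rule reads absolute UMIs, so it was repeated on nuclei thinned to 2000 UMIs. Nuclei with fewer were left out, which kept 13581 of 14836 nuclei for C57J 1, 11191 of 14074 for C57J 2, 12251 of 14670 for nude and 11917 of 12080 for BALB/c, so that the deepest library lost the fewest. The share was then 2.14%, 2.23% and 2.25% in C57J 1, C57J 2 and nude, and 3.33% in BALB/c (3.02 to 3.67%), above the interval of each other library, and the part of the unequal loss of shallow nuclei in this was not tested. Of the glial nuclei alone, OPCs made up 9.85 and 10.3% for C57J 1 and C57J 2, 13.8% for nude and 8.33% for BALB/c.

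The limit on Enpp6 and Gpr17 acted unequally on the libraries. Among nuclei that met the lower limits on Pdgfra, Cspg4 and Vcan, C57J 1 lost 61 of 468, C57J 2 lost 21 of 370 (5.68%), nude lost 20 of 416 (4.81%) and BALB/c lost 252 of 571 (44.1%, 95% interval 40.0 to 48.3%). For C57J 1 the interval was 10.1 to 16.4%. Gpr17 alone, a receptor gene of the premyelinating stage, accounted for 59, 19, 18 and 244 of these. At 2000 UMIs per nucleus, again without the shallower nuclei, 329, 265, 286 and 480 nuclei were marker-positive and the removed shares were 7.60% (4.98 to 11.0%), 3.77% (1.82 to 6.83%), 3.15% (1.45 to 5.89%) and 14.4% (11.4 to 17.8%). These genes belong to the rule, so the shares are a description, and the intervals cover counting error over nuclei of single libraries.

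The Gpr17 counts behind this limit are given as a description of the rule. With both upper limits lifted and 2000 UMIs per nucleus, a Gpr17 UMI was found in 28.9, 20.8 and 17.8% of marker-positive nuclei of C57J 1, C57J 2 and nude, and for BALB/c in 44.8% (40.3 to 49.4%). Of all other nuclei 1.54, 1.33, 0.961 and 0.979% had one, far below each of these shares. In the removed nuclei, which had been selected on Pdgfra, Cspg4 and Vcan too, Lhfpl3 stood at 4444, 6245, 4643 and 4176 CPM in them, Ptprz1 at 2041, 2258, 1839 and 2405 CPM, and Bcas1, a gene of early myelinating cells, at 481, 576, 582 and 635 CPM. Bmp4, a growth factor gene of the premyelinating stage, stood at 7.45, 0, 0 and 4.86 CPM, and no test compared the removed nuclei with another class. Without either upper limit, at 2000 UMIs, the share of all nuclei was 2.42, 2.37, 2.33 and 4.03% for C57J 1, C57J 2, nude and BALB/c. The mitosis genes Mki67 and Top2a removed a further 22, 9, 3 and 15 nuclei at all UMIs, or 4.70% (2.97 to 7.03%), 2.43% (1.12 to 4.57%), 0.721% (0.149 to 2.09%) and 2.63% (1.48 to 4.30%) of the marker-positive ones. These genes belong to the rule, and the shares are a description at unequal depth.

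**Figure D1:**
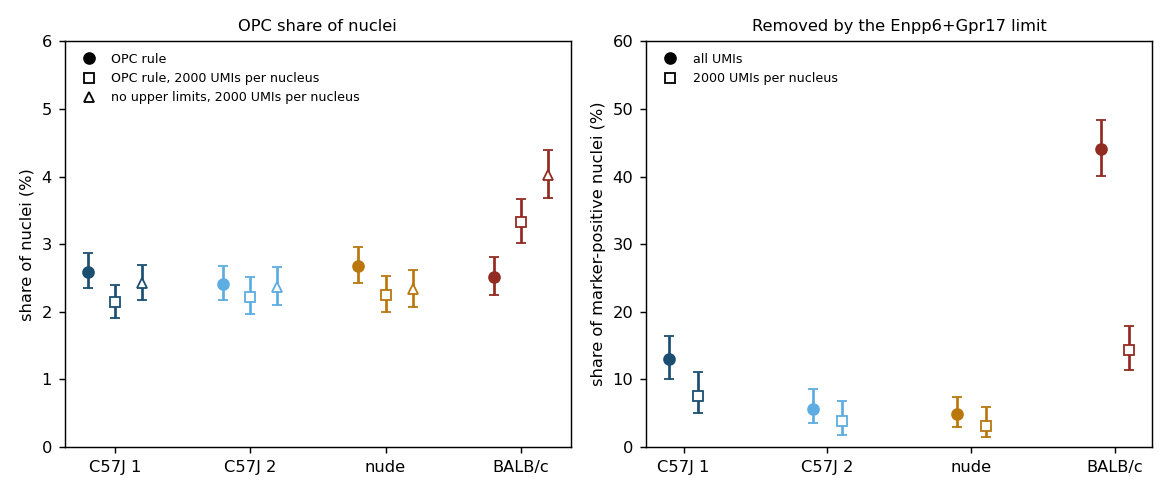
Left, OPCs as a percentage of nuclei in each library, and right, marker-positive nuclei removed by the limit on Enpp6 and Gpr17 as a percentage of all marker-positive nuclei; filled circles use all UMIs, open symbols 2000 UMIs per nucleus with shallower nuclei left out, and bars are 95% exact binomial intervals. The rule gives 2.42 to 2.68% in all libraries, while at equal depth BALB/c stands at 3.33% with the upper limits and 4.03% without them.

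The OPC profile was compared with 159 newly forming oligodendrocytes (58, 42, 20 and 39 from C57J 1, C57J 2, nude and BALB/c), selected on Enpp6 and Gpr17, and with 4555 mature oligodendrocytes, selected on Mog, Mag and Mobp. UMIs were summed per library and class, the library was a block, and genes of the rules were not counted. Calls were made with edgeR's quasi-likelihood test and needed a Benjamini-Hochberg p, over all genes tested, of less than 0.05 beside a log2 fold change of more than 0.5 in either direction. This called 2045 of 8038 genes (25.4%) against newly forming oligodendrocytes, 1148 higher (14.3%) and 897 lower (11.2%) in OPCs. Against mature oligodendrocytes it called 3698 of 11441 (32.3%), 2062 higher (18%) and 1636 lower (14.3%). Of the 159 newly forming nuclei, 69 were not predicted doublets, and these were 41 from C57J 1, 9 from C57J 2, 3 from nude and 16 from BALB/c. With predicted doublets removed from both classes, 432 of 7106 genes (6.08%) were called against newly forming oligodendrocytes, 262 higher (3.69%) and 170 lower (2.39%), so that calls were fewer over all genes. Against mature oligodendrocytes 3791 of 10963 (34.6%) were called, 2130 higher (19.4%) and 1661 lower (15.2%). Counts of lists without predicted doublets are given beside their own and are to be read against these shares. Against mature oligodendrocytes they were 15 higher and 0 lower of 15 OPC markers, 5 and 1 of 8 newly forming markers, 0 and 12 of 12 myelin genes, 29 and 2 of 35 proteoglycan, matrix and adhesion genes, 2 and 2 of 7 cell cycle genes, and 6 and 2 of 17 MHC class I, interferon and cytokine receptor genes.

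Of the 15 OPC markers, 15 were higher than in mature oligodendrocytes, with a median log2 fold change of 3.72 against -0.04 over all genes tested. Xylt1, which starts the sugar chains of proteoglycans, had 1855, 1903, 2133 and 2472 CPM in OPCs of C57J 1, C57J 2, nude and BALB/c and 59.6, 69.8, 83.3 and 34.0 CPM in mature oligodendrocytes, a log2 fold change of 5.16 (SE 0.25, adjusted p = 2.71e-08). The classes did not overlap in any library. Sox10, a transcription factor of the whole lineage, differed least, with a log2 fold change of 0.58 (SE 0.12, adjusted p = 0.00198). Against newly forming oligodendrocytes 10 of 15 were higher and 2 lower. The 2 were Sox10 and Tnr. Without predicted doublets 6 of 15 were higher and 0 lower. Tnr, a matrix protein gene of the lineage, had 2984, 3372, 2917 and 3173 CPM in OPCs and 8425, 10018, 8672 and 8790 CPM in newly forming oligodendrocytes, above the OPCs in every library (log2 fold change -1.60, SE 0.13, adjusted p = 1.28e-11). Cspg5, a chondroitin sulfate proteoglycan gene, had the largest rise of this list in OPCs over newly forming oligodendrocytes, at 2.31 (SE 0.21, adjusted p = 1.83e-10).

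**Figure D2:**
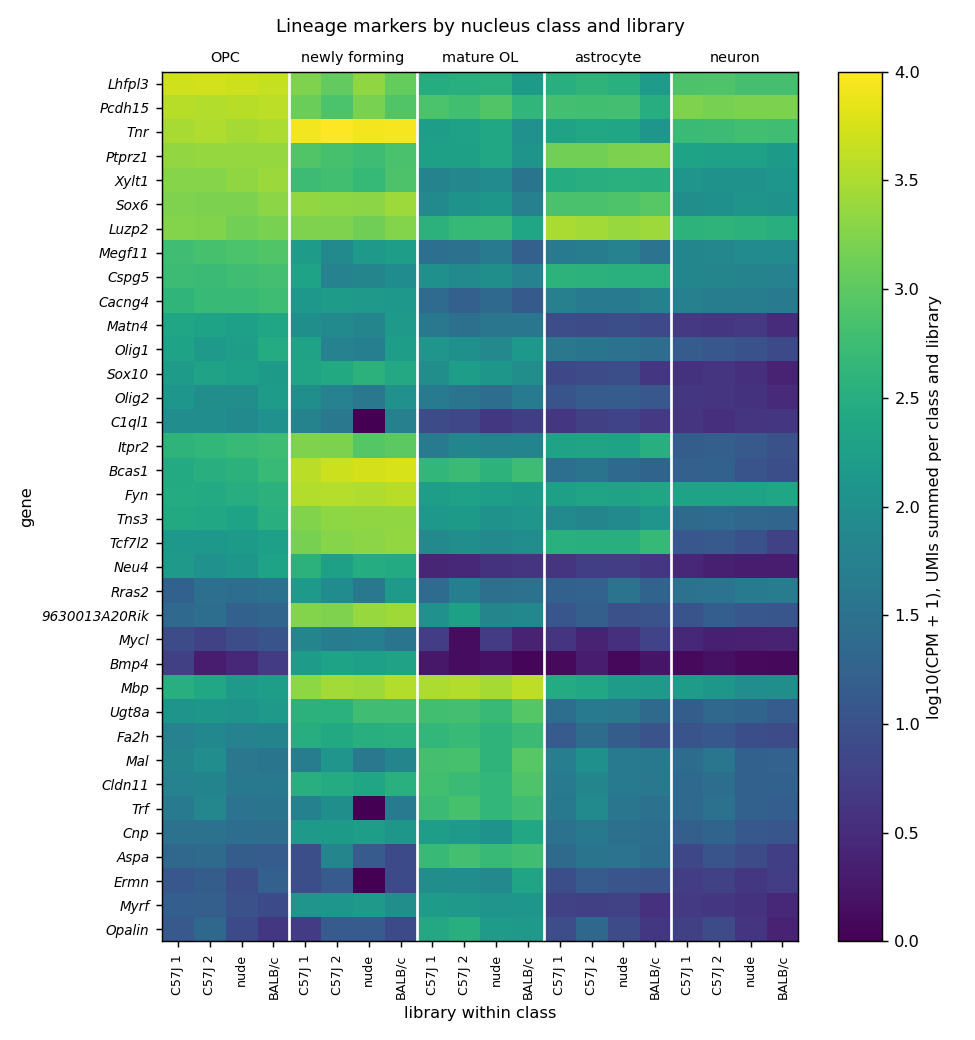
Colour gives log10(CPM + 1) of lineage markers outside the class rules (1 row each) in the UMIs summed per library (columns), for OPCs, newly forming oligodendrocytes, mature oligodendrocytes (OL), astrocytes and nuclei meeting the neuron rule. The OPC markers form an even block over the 4 OPC columns, Tnr peaks in newly forming oligodendrocytes at 8425 to 10018 CPM, and Mbp peaks in mature oligodendrocytes.

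The stage markers set the lower and upper ends of the same axis. All 10 newly forming markers outside the rules were lower in OPCs than in newly forming oligodendrocytes, with a median log2 fold change of -3.32, and without predicted doublets 6 of 8 were, with a median of -1.68. The noncoding RNA 9630013A20Rik had 22.6, 26.6, 16.5 and 19.0 CPM in OPCs against 1809, 1710, 2374 and 2709 CPM there (log2 fold change -6.73, SE 0.20, adjusted p = 6.29e-22), without overlap. Bcas1 had 283, 321, 373 and 516 CPM in OPCs and 3929, 5013, 5613 and 5667 CPM in newly forming oligodendrocytes. Neu4, a sialidase gene, differed least there, with a log2 fold change of -0.99 (SE 0.17, adjusted p = 1.74e-05). Against mature oligodendrocytes Neu4 was the gene with the largest rise of the list, with 146, 105, 130 and 211 CPM in OPCs and 1.65, 1.78, 2.83 and 2.95 CPM in mature cells (log2 fold change 6.07, SE 0.16, adjusted p = 3.11e-09). Bcas1 there was not called, at -0.38.

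All 12 myelin genes outside the rule were lower in OPCs than in mature oligodendrocytes, with a median log2 fold change of -3.56. Aspa, an enzyme gene of myelin lipid supply, fell most, by 4.95 (SE 0.17, adjusted p = 4.90e-09). Mbp, a main protein of the myelin sheath, had 338, 248, 147 and 174 CPM in OPCs and 3205, 3492, 2892 and 3932 CPM in mature oligodendrocytes. Ugt8a, which makes the myelin lipid galactosylceramide, differed least, at -2.33 (SE 0.13, adjusted p = 6.37e-08). Of 12 myelin genes tested against newly forming oligodendrocytes, 9 were lower, 0 higher and 3 not called, and without predicted doublets 7 of 11 were lower.

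Transcription factors divided along these stages. Against newly forming oligodendrocytes 11 of 24 were higher and 9 lower in OPCs, and against mature oligodendrocytes 18 of 27 were higher and 4 lower. Without predicted doublets 3 of 23 were higher and 3 lower than in newly forming oligodendrocytes, and 17 of 27 were higher and 4 lower than in mature ones. Sox6, which holds precursors undifferentiated, had 1698, 1638, 1629 and 2020 CPM in OPCs and 81.3, 111, 131 and 54.3 CPM in mature oligodendrocytes, while newly forming oligodendrocytes kept 1987 to 2625 CPM. Zeb1, a zinc finger repressor, already differed from newly forming oligodendrocytes, with 1674, 1753, 1619 and 1682 CPM in OPCs against 558, 304, 361 and 306 CPM (log2 fold change 2.08, SE 0.16, adjusted p = 3.44e-12). Tcf4, an E-protein partner of the lineage factors, had 1290 to 1652 CPM in OPCs and 1261 to 1408 CPM in newly forming oligodendrocytes. These 3 genes did not overlap between OPCs and mature oligodendrocytes in any library.

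Etv4, an ETS factor induced by growth factor signalling, had the largest rise of the transcription factors in both comparisons. Its level was 145, 210, 165 and 115 CPM in OPCs, 32.4, 6.60, 0 and 6.79 CPM in newly forming and 3.30, 3.56, 5.10 and 1.97 CPM in mature oligodendrocytes. The log2 fold changes were 3.31 (SE 0.35, adjusted p = 3.64e-09) and 5.59 (SE 0.16, adjusted p = 3.11e-09). St18, a zinc finger factor of differentiating oligodendrocytes, had the largest fall in both, with 82.3, 131, 95.8 and 61.1 CPM in OPCs and 2088 to 2870 CPM in the other classes (log2 fold changes -4.76, SE 0.18, and -4.94, SE 0.20). Its level in OPCs was close to that in nuclei meeting the neuron rule, 55.3, 76.1, 64.6 and 41.1 CPM. OPCs were lower than all newly forming and mature oligodendrocyte sums.

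Genes of proteoglycans, matrix and adhesion formed the longest list. Against newly forming oligodendrocytes 20 of 33 were higher and 5 lower in OPCs, and against mature oligodendrocytes 28 of 35 were higher and 2 lower, with a median log2 fold change of 2.02. Without predicted doublets 14 of 33 were higher and 0 lower than in newly forming oligodendrocytes. The synaptic adhesion genes Lrrc4c (5189 to 6313 CPM) and Nlgn1 (5020 to 5788 CPM) were both called higher in both comparisons. Gpc5, a heparan sulfate proteoglycan gene, rose most over newly forming oligodendrocytes, with 4441, 3892, 3965 and 4650 CPM against 1064, 489, 503 and 543 CPM (log2 fold change 2.68, SE 0.16, adjusted p = 1.53e-14). The integrin gene Itga9 rose most over mature oligodendrocytes, with 220, 234, 388 and 487 CPM against 6.04, 5.70, 10.2 and 3.45 CPM (log2 fold change 5.85, SE 0.27, adjusted p = 1.96e-08). Astrocytes held 6.60 to 8.60 CPM and nuclei meeting the neuron rule 5.80 to 6.83 CPM of Itga9, and newly forming oligodendrocytes 106 to 275 CPM. The falls were largest for Ephb1, an ephrin receptor gene, against newly forming oligodendrocytes (-3.17, SE 0.17, adjusted p = 7.07e-16), and for Hapln2, a matrix link protein gene of myelinated fibres, against mature ones (-4.58, SE 0.18, adjusted p = 8.19e-09).

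Receptors for neuronal transmitters followed. Of the glutamate receptor genes, 11 of 20 were higher and 4 lower in OPCs than in newly forming oligodendrocytes, and 11 of 23 were higher and 1 lower than in mature ones. The metabotropic receptor gene Grm5 had 1360 to 2270 CPM and the AMPA receptor subunit gene Gria2 1659 to 1887 CPM in OPCs. Grin3a, an NMDA receptor subunit gene, rose most in both comparisons, with 536, 494, 468 and 579 CPM in OPCs, 146, 106, 90.3 and 126 CPM in newly forming and 67.0, 59.8, 64.6 and 33.5 CPM in mature oligodendrocytes (log2 fold changes 2.04, SE 0.17, and 3.28, SE 0.19). Its level in nuclei meeting the neuron rule was 132 to 139 CPM, below every OPC sum. Grm5 instead stood at 3916 to 4444 CPM there, above every OPC sum. Grm3, a metabotropic receptor gene, was the 1 gene lower than in mature oligodendrocytes (-3.19, SE 0.23, adjusted p = 6.25e-07), and the kainate receptor gene Grik3 fell most against newly forming ones (-0.99, SE 0.24, adjusted p = 0.00141). Grik3 had 160, 167, 155 and 166 CPM in OPCs of C57J 1, C57J 2, nude and BALB/c. In newly forming oligodendrocytes it had 121, 205, 387 and 611 CPM, so that C57J 1 went the other way. Without predicted doublets 4 of 20 were higher and 0 lower than in newly forming oligodendrocytes, so that the lower call of Grik3 was lost, and 11 of 22 were higher and 2 lower than in mature ones.

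Of the GABA receptor genes, 10 of 12 were higher and 0 lower in OPCs than in newly forming oligodendrocytes, and 5 of 13 were higher and 1 lower than in mature ones. The GABA-A subunit genes Gabrg3 (642 to 973 CPM) and Gabrb1 (397 to 797 CPM) both had higher levels in nuclei meeting the neuron rule, at 1651 to 1953 and 1248 to 1438 CPM. The largest rises were those of the GABA-A subunit gene Gabrb2 over newly forming oligodendrocytes (1.79, SE 0.21, adjusted p = 5.32e-08) and of the GABA-B subunit gene Gabbr2 over mature ones (1.08, SE 0.10, adjusted p = 4.72e-06). Gabbr1, the other GABA-B subunit gene, was lower than in mature oligodendrocytes (-0.67, SE 0.13, adjusted p = 0.00123). All 4 neuron markers were also higher in OPCs than in newly forming oligodendrocytes, by a median of 0.78, and 4 of 8 astrocyte markers were higher, by a median of 1.13. Against mature oligodendrocytes 0 of the 4 neuron markers and 3 of the 8 astrocyte markers were called higher. Without predicted doublets, 1 of 12 GABA receptor genes, 0 of 4 neuron markers and 0 of 6 astrocyte markers were higher than in newly forming oligodendrocytes, and 6 of 13, 0 of 4 and 2 of 8 than in mature ones, beside 3.69% and 19.4% of all genes in these fits.

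Ion channel genes were higher in OPCs than in newly forming oligodendrocytes for 15 of 23 members and lower for 2, and higher than in mature ones for 15 of 23 and lower for 3. Without predicted doublets 4 of 22 were higher and 0 lower than in newly forming oligodendrocytes, and 16 of 23 were higher and 4 lower than in mature ones. Kcnd2, which encodes an A-type potassium channel, led with 4130, 3594, 3681 and 3976 CPM and rose most over newly forming oligodendrocytes (2.03, SE 0.16, adjusted p = 6.38e-12), above its 1707 to 2043 CPM in nuclei meeting the neuron rule. Kcnip4 (502 to 1273 CPM), a gene for a potassium channel partner, and Kcnma1 (693 to 1128 CPM), a calcium-gated potassium channel gene, came next. Cacng4, an AMPA receptor auxiliary subunit gene, rose most over mature oligodendrocytes, with 415, 497, 500 and 581 CPM against 23.6, 16.0, 22.7 and 12.5 CPM (4.80, SE 0.20, adjusted p = 1.31e-08). OPCs were above both oligodendrocyte classes in every library for Kcnd2 and Cacng4. The largest falls were those of the potassium channel genes Kcna2 against newly forming (-1.35, SE 0.22, adjusted p = 1.14e-05) and Kcna1 against mature oligodendrocytes (-2.54, SE 0.13, adjusted p = 4.48e-08).

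Of the growth factor, Notch, BMP and Wnt signalling genes, 9 of 29 were higher and 3 lower in OPCs than in newly forming oligodendrocytes, and 14 of 34 were higher and 7 lower than in mature ones. Without predicted doublets 1 of 26 was higher and 0 lower than in newly forming oligodendrocytes (all genes 3.69% and 2.39%), and 14 of 32 were higher and 6 lower than in mature ones (all genes 19.4% and 15.2%). The neuregulin receptor gene Erbb4 (2546 to 3748 CPM) and the adhesion receptor genes Adgrb3 (2572 to 3089) and Adgrl3 (2124 to 2485) had the highest levels, and Erbb4 was called in neither comparison. The largest rises were those of the Notch ligand genes Dll1 and Jag1. Dll1 had 25.9, 21.5, 21.8 and 24.2 CPM in OPCs and 0, 6.60, 0 and 3.40 CPM in newly forming oligodendrocytes (3.05, SE 0.73, adjusted p = 0.00162). Jag1 had 16.6, 15.4, 21.8 and 24.8 CPM in OPCs and 1.65, 2.85, 3.97 and 0.657 CPM in mature ones (3.40, SE 0.39, adjusted p = 2.54e-05). OPCs were the higher class in every library for both genes. Pdgfa, the ligand of Pdgfra, fell most against newly forming oligodendrocytes (-2.05, SE 0.35, adjusted p = 2.33e-05) and Gpr37, an orphan receptor gene, against mature ones (-3.26, SE 0.27, adjusted p = 1.68e-06).

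Cell cycle genes were mostly too low to test: 3 of 21 entered the comparison with newly forming and 7 that with mature oligodendrocytes, in nuclei chosen to lack Mki67 and Top2a. The cyclin gene Ccnd1 had 43.1, 46.1, 55.7 and 50.2 CPM in OPCs, 4.05, 26.4, 0 and 20.4 CPM in newly forming and 9.25 to 17.6 CPM in mature oligodendrocytes, lower in every library, and was called higher in both comparisons (1.66, SE 0.42, and 1.95, SE 0.16). Ccnd2 rose most over newly forming oligodendrocytes (1.80, SE 0.57, adjusted p = 0.0178) and Ccnd3 fell most against mature ones (-2.03, SE 0.19, adjusted p = 4.72e-06). Among MHC class I, interferon and cytokine receptor genes, 1 of 10 was higher and 2 lower than in newly forming oligodendrocytes, and 6 of 18 were higher and 2 lower than in mature ones, beside 25.4% and 32.3% of all genes called in either direction. Without predicted doublets 0 of 9 were higher and 1 lower than in newly forming oligodendrocytes, and 0 of 3 cell cycle genes were called. The most abundant were Il1rapl1 (2626 to 3089 CPM), an interleukin 1 receptor relative with synaptic roles, Il1rap (216 to 226) and Cd47 (116 to 156), the signal that restrains phagocytes. Lifr, a cytokine receptor gene, rose most over newly forming oligodendrocytes (1.10, SE 0.24, adjusted p = 0.000481) and the interferon receptor gene Ifnar2 fell most (-1.70, SE 0.25, adjusted p = 2.30e-06). Against mature oligodendrocytes these were Il17rd (2.46, SE 0.37, adjusted p = 0.000194) and Il1rap (-1.07, SE 0.15, adjusted p = 0.000124).

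**Figure D3:**
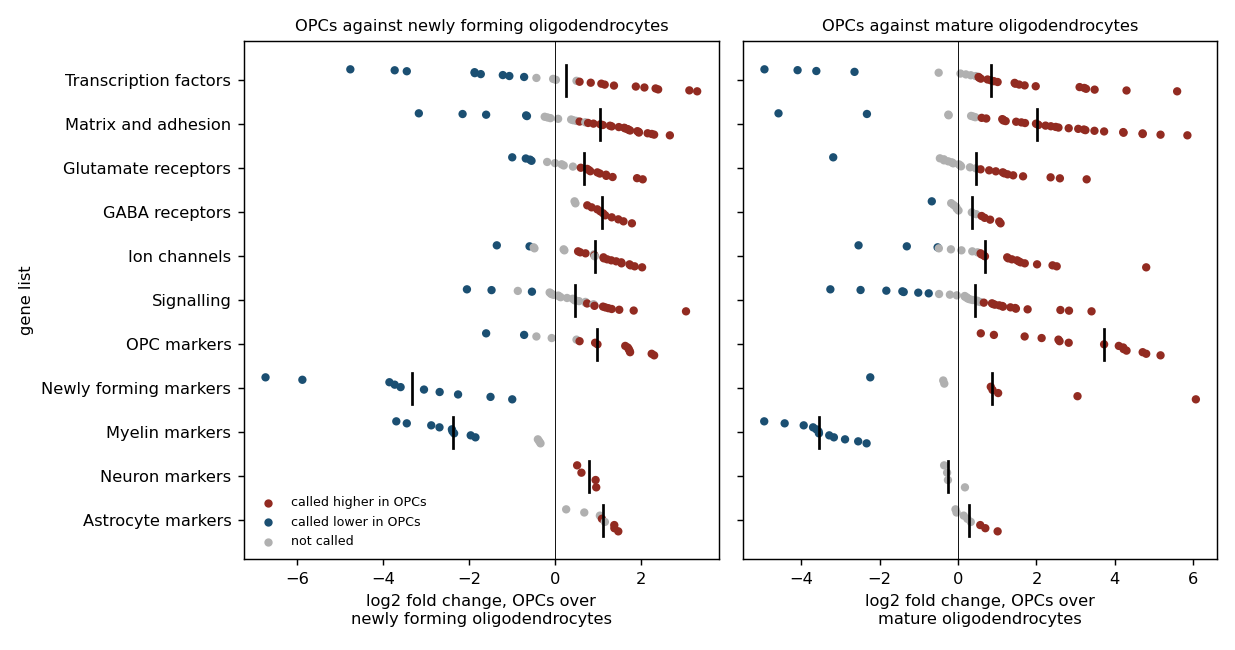
Each point is a gene of a list, placed by its log2 fold change in OPCs over newly forming (left) or mature oligodendrocytes (right); red and blue points were called by edgeR's quasi-likelihood test, grey ones were not, and black bars are list medians. Myelin genes lie below 0 in both panels, OPC markers have medians of 0.99 and 3.72, and the neuron markers lie above 0 on the left only as a group.

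The question of the study's design is how immune and strain background changes these cells, and OPCs of nude and BALB/c were compared with those of both C57J libraries. In this comparison strain, immune state, batch and library cannot be fully told apart. Nude and BALB/c differ in genotype but were fitted as 1 group, so the spread behind the p-values includes the difference between them. Within batch 2 that spread comes from them alone. Of 10759 genes tested, 53 were called (0.493%), 27 higher (0.251%) and 26 lower (0.242%) in nude and BALB/c, and 866 had an unadjusted p below 0.05. Within batch 2, where C57J 2 alone stood for C57J, 25 genes were called, of which 22 were among the 53. Batch 1 held C57J 1 only and gives no value of its own. DESeq2 called 25, all among the 53. Without C57J 2 the count was 136, without nude 363 and without BALB/c 78.

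The 8 largest rises without overlap were those of Gm12160, Gm19299, Prss41, Gm3417, Tpm3-rs7, 9030025P20Rik, Itih5 and Gm3448. Gm19299, a long noncoding RNA gene on chromosome 9 (67133560 to 67213918), had 0.663 and 2.05 CPM in C57J 1 and C57J 2 and 164 and 205 CPM in nude and BALB/c. From 3 UMIs in C57J against 544 this was a ratio of 156 (95% counting interval 53.2 to 760, adjusted p = 2.04e-08 by edgeR). In the same libraries mature oligodendrocytes had 0.275, 0, 2.27 and 0.657 CPM and astrocytes 0.122, 0, 2.68 and 1.39 CPM, while newly forming oligodendrocytes had 4.05, 0, 64.5 and 88.3 CPM. The newly forming values rest on 1, 0, 5 and 26 UMIs, or 1, 0, 2 and 14 without predicted doublets. OPCs of nude and BALB/c were far above those of C57J, and the test of a different background effect in OPCs did not call it against mature oligodendrocytes (adjusted p = 0.837) or astrocytes (adjusted p = 0.880). Gm12160 and Prss41 had 0 UMIs in C57J and 52 and 32 in nude and BALB/c, at least 14.9-fold and 9.19-fold higher against a floor of 3 UMIs over the group. In mature oligodendrocytes of C57J 1, C57J 2, nude and BALB/c, Gm12160 had 0, 0, 32.3 and 35.8 CPM, the same direction. Prss41, a serine protease gene, was not called within batch 2 (adjusted p = 0.373) or by DESeq2 (0.0583).

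Next to each other on chromosome 17 lie Gm3417 (14964242 to 14978790), 9030025P20Rik (14978468 to 14991572) and Gm3448 (14995787 to 15041537). Gm3417 had 1.33, 1.02, 35.7 and 54.8 CPM, a ratio of 39.1 from 3 UMIs in C57J (13.1 to 192). 9030025P20Rik had 5.97, 8.20, 55.7 and 92.3 CPM (log2 fold change 3.50, SE 0.36, adjusted p = 6.47e-05) and Gm3448 8.62, 13.3, 39.2 and 77.3 CPM (2.55, SE 0.37, adjusted p = 0.00285, and 0.0571 within batch 2). All 3 were higher in nude and BALB/c without overlap, and so they were in mature oligodendrocytes and astrocytes. For Gm3448, leaving out 1 library gave log2 fold changes of 1.92 to 2.95. Their models overlap or resemble each other, and since the counting is not stated to use strand, their reads cannot be told apart with certainty. The same holds for Tpm3-rs7 (0.663, 0, 14.8 and 8.65 CPM), a related sequence of Tpm3, which was not called within batch 2 (adjusted p = 0.353) or by DESeq2 (0.454). Itih5, a matrix-stabilising protein gene, had 11.3, 5.12, 25.3 and 84.8 CPM (2.77, SE 0.51, adjusted p = 0.0161). It was not called by DESeq2 (adjusted p = 0.724), within batch 2 (0.0528) or without predicted doublets (0.0589), and leaving out 1 library gave log2 fold changes of 1.55 to 3.54.

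Several genes with known functions fell. Lpcat2, an enzyme of membrane phospholipid remodelling (chromosome 8, 92855339 to 92919279), had 178 and 196 CPM in C57J 1 and C57J 2 and 47.9 and 39.8 CPM in nude and BALB/c (log2 fold change -2.04, SE 0.19, adjusted p = 2.57e-05). Ebf1, a transcription factor gene (chromosome 11, 44617317 to 45008091), had 140, 141, 27.9 and 44.4 CPM (-1.86, SE 0.22, adjusted p = 0.000307). Both were separated between backgrounds, and within batch 2 the log2 fold changes were -2.10 for Lpcat2 and -1.86 for Ebf1. Inpp4b, a phosphoinositide phosphatase gene, was chosen after its values were seen: it had 729, 581, 192 and 220 CPM (-1.61, SE 0.17, adjusted p = 0.000104) in OPCs, while mature oligodendrocytes had 157, 203, 219 and 79.1 CPM and astrocytes 179, 238, 270 and 143 CPM, in which the backgrounds overlapped. The difference between classes was not called for Inpp4b (adjusted p = 0.711 and 0.331).

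Il15, a cytokine that sustains T and natural killer cells (chromosome 8, 82331632 to 82403222), had 21.2 and 15.4 CPM in C57J 1 and C57J 2 and 0.871 and 0.577 CPM in nude and BALB/c. With 47 UMIs against 2, the ratio was 27.3 (95% counting interval 7.14 to 232, adjusted p = 0.00296), and it was not called within batch 2 (adjusted p = 0.404) or by DESeq2 (0.0573). Astrocytes had 12.6, 13.6, 4.70 and 4.65 CPM of Il15. Gpnmb, a membrane glycoprotein gene of phagocytes and lysosome stress, had 27 UMIs in C57J and 0 in nude and BALB/c, at least 10.4-fold lower. It was not called by DESeq2 (adjusted p = 0.0753). The 5 microglia markers summed to 63.7, 80.9, 42.7 and 28.3 CPM in these OPCs. Without the OPCs that met the rule of another class, Il15 was called (adjusted p = 0.00577 by edgeR) and Gpnmb was too low to be tested. The part of RNA from other cells in the falls of Il15 and Gpnmb was not tested.

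Gm17167, Cldn34c1 and Ccl27a had 79, 54 and 29 UMIs in C57J and 0 in nude and BALB/c, at least 30.6-fold, 20.9-fold and 11.2-fold lower. 1500004A13Rik, a noncoding RNA gene, had 93.5, 137, 13.9 and 6.92 CPM (-3.46, SE 0.30, adjusted p = 1.55e-05), and mature oligodendrocytes had 222, 306, 11.3 and 11.8 CPM. Rpl29, a ribosomal protein gene with many pseudogenes, had 24.5, 23.6, 2.61 and 1.15 CPM, and Gm21860 18.6, 21.5, 0 and 2.88 CPM. Rpl29 had 37.6, 34.5, 5.67 and 2.95 CPM in mature oligodendrocytes, and Gm21860 17.2, 15.5, 0 and 0.792 CPM in astrocytes. Ccl27a, Cldn34c1, Rpl29 and Gm21860 belong to families of near copies, so their values are uncertain. Within batch 2 Rpl29 and Gm21860 had log2 fold changes of -3.60 and -3.52 and were not called (adjusted p = 0.0963 and 0.266). Without predicted doublets Gm21860 was not called (adjusted p = 0.0696), and Ccl27a and Gm21860 were not called by DESeq2 (0.0525 and 0.0615).

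**Figure D4:**
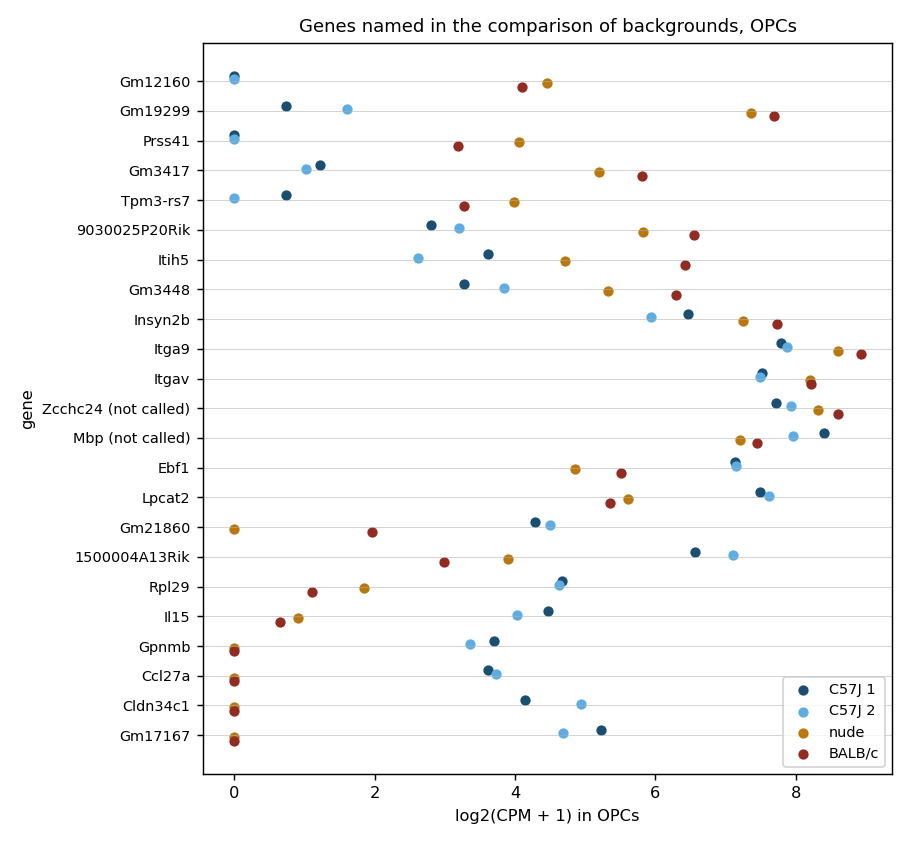
Level of each named gene in OPCs as log2(CPM + 1), with 1 point per library; genes are ordered by log2 fold change of nude and BALB/c over C57J. For every gene shown the C57J points lie on 1 side of the nude and BALB/c points; Zcchc24 and Mbp were not called.

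The list of proteoglycans, matrix and adhesion held 2 called genes of 34, beside 0.493% of all genes, both integrin subunits that bind matrix. Itga9 is also among the genes that the study had named for OPCs from these same samples, so its call is no independent evidence for the list. Itga9 had 220 and 234 CPM in C57J 1 and C57J 2 and 388 and 487 CPM in nude and BALB/c (log2 fold change 1.01, SE 0.17, adjusted p = 0.00851). Itgav had 182, 178, 293 and 296 CPM (0.77, SE 0.16, adjusted p = 0.0385). Both rose without overlap, and within batch 2 the log2 fold changes were 0.98 and 0.79, with neither called (adjusted p = 0.353 and 0.587). Itgav was also not called without predicted doublets (adjusted p = 0.100) or by DESeq2 (0.154). Of all 34, 11 were higher and 2 lower in nude and BALB/c without overlap, or 32.4% and 5.88%, against 13.1% and 23.6% of all genes tested. The median log2 fold change was 0.14, against -0.000642 over all genes.

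Genes that the study had named for OPCs from these same samples are no independent evidence, and 4 of 6 were called, beside 0.493% of all genes. Besides Lpcat2, Ebf1 and Itga9 these included Insyn2b, an inhibitory synapse gene, with 86.9, 60.5, 152 and 211 CPM (1.35, SE 0.22, adjusted p = 0.00682), higher in nude and BALB/c without overlap. Zcchc24, a zinc finger gene, had 210, 243, 316 and 388 CPM (0.71, SE 0.17, adjusted p = 0.0905). Mbp had 338, 248, 147 and 174 CPM (-0.81, SE 0.19, adjusted p = 0.0713), and without upper limits in the rule it was called (-0.79, adjusted p = 0.0452). Nuclei meeting the neuron rule had 162, 131, 91.5 and 97.0 CPM of Mbp and astrocytes 289, 243, 157 and 147 CPM, both lower in nude and BALB/c as well, while mature oligodendrocytes had 3205, 3492, 2892 and 3932 CPM, which overlapped.

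No further list held a called gene: transcription factors 0 of 27, glutamate receptors 0 of 23, GABA receptors 0 of 13, ion channels 0 of 23, signalling genes 0 of 34, cell cycle genes 0 of 8, and MHC class I, interferon and cytokine receptor genes 0 of 15. With 0.493% of all genes called, counts of 0 in lists of this length say nothing particular about them. Their median log2 fold changes lay between -0.14 and 0.30. Of the 15 OPC markers 0 were called, with a median of 0.16. Among markers of other cells the medians were -0.58 for 15 myelin genes, -0.58 for 8 astrocyte markers and -1.04 for 4 microglia markers, with 0 called in each. Of these, 12 of 15, 4 of 8 and 4 of 4 were lower in nude and BALB/c without overlap, against 23.6% of all genes. The 9 newly forming markers had a median of 0.41, with 5 higher and 1 lower without overlap, against 13.1% and 23.6% of all genes.

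Whether a background difference in OPCs differed from that in other glia was tested as an interaction of class and background. Against mature oligodendrocytes 11 of 12339 genes were called (0.0891%), 5 with the difference higher in OPCs (0.0405%) and 6 with it lower (0.0486%). In 10 of the 11 the OPCs had the smaller change. Ppp1cc, a phosphatase subunit gene, had 48.4, 43.0, 46.1 and 35.8 CPM in OPCs of C57J 1, C57J 2, nude and BALB/c and 375, 213, 31.2 and 33.3 CPM in mature oligodendrocytes, where the backgrounds were apart (difference of log2 fold changes 2.97, SE 0.30, adjusted p = 0.00302). Fcho1, an endocytosis gene, had 21.9, 7.17, 19.2 and 9.80 CPM in OPCs and 11.5, 6.76, 127 and 85.0 CPM in mature oligodendrocytes (-3.61, SE 0.40, adjusted p = 0.00399). Among list genes, Dscaml1, an adhesion gene, had 842, 1022, 763 and 1027 CPM in OPCs and 781, 864, 188 and 237 CPM in mature oligodendrocytes, and Tgfbr2, a TGF-beta receptor gene, had 4.04 to 9.22 CPM in OPCs and 5.22, 6.05, 56.7 and 78.9 CPM in mature oligodendrocytes. In the OPCs the backgrounds overlapped for all 4 genes. Without predicted doublets 2 genes were called, and Dscaml1, Tgfbr2 and Ermard were not among them (adjusted p = 0.156, 0.163 and 0.274).

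Ermard, which lies beside Gm3448 on chromosome 17 (15041208 to 15090044), was the gene whose change was larger in OPCs. It had 35.8, 29.7, 74.9 and 128 CPM in OPCs, higher in nude and BALB/c without overlap, and 31.9, 37.7, 27.8 and 40.2 CPM in mature oligodendrocytes, where the backgrounds overlapped (difference 1.63, SE 0.26, adjusted p = 0.0412). Its model overlaps that of Gm3448 on the opposite strand. Against astrocytes 1 of 13987 genes was called (0.00715%). Fam163a, a small membrane protein gene, had 19.9, 7.17, 46.1 and 61.7 CPM in OPCs and 44.8, 49.0, 8.50 and 6.34 CPM in astrocytes, so that its direction was opposite in the 2 classes (difference 4.60, SE 0.41, adjusted p = 0.00350). With C57J 1 left out, 0 genes were called in either interaction test, where 477 and 475 genes had an unadjusted p of less than 0.05, and without nude 836 and 882 were called.

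**Figure D5:**
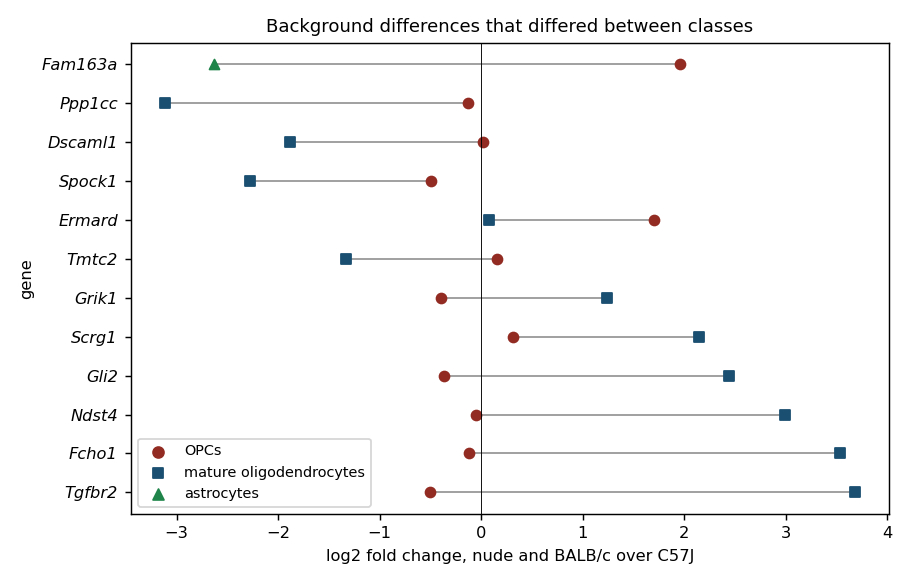
Log2 fold change of nude and BALB/c over C57J in OPCs (red circles) and in mature oligodendrocytes (blue squares) or astrocytes (green triangle), for the 12 genes whose difference between the classes was called. The other 10 OPC points lie below those of Ermard (1.70) and Fam163a (1.96).

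Nude and BALB/c share a strain background and differ in T cells, and with 1 library each their OPCs are set side by side without a test. Of 8753 genes with at least 20 UMIs in the higher library, 405 (4.63%) differed by more than 2-fold, 209 higher in nude and 196 in BALB/c. The same count for the C57J libraries was 328 of 8559 (3.83%). C57J 2 differed from nude at 3.54% of genes and from BALB/c at 6.31%, and C57J 1 at 4.93% and 7.31%. The OPC sums held 1148432 UMIs in nude and 1733923 in BALB/c. The limit on Enpp6 and Gpr17 had removed 4.81% of marker-positive nuclei in nude and 44.1% in BALB/c. The part of depth or of this limit in these shares was not tested. The genes with the largest differences, chosen after their values were seen, were Slc6a20a (0 and 20.8 CPM in nude and BALB/c), Slc6a13 (0 and 19.6) and Dcn (0 and 11.5), of which Slc6a13 and Dcn are fibroblast markers, in the library where 10 OPCs met the fibroblast rule. Bmp6, a growth factor gene, had 5.97, 3.07, 5.22 and 41.5 CPM in C57J 1, C57J 2, nude and BALB/c. Vwc2l, a secreted BMP-binding protein gene, had 19.2, 21.5, 29.6 and 2.88 CPM. BALB/c stood apart from the other 3 libraries in all 5.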

How the data were processed

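Nuclei of pooled lateral septum were profiled with droplet-based 3' single-nucleus RNA sequencing. The authors deposited raw UMI counts per gene and nucleus for each library, made with Cell Ranger 7.0.1 and mm10 per the submitters' processing notes. Whether intronic reads were counted is not given in the sources used here. Per-sample columns of other series numbered 0.

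Nuclei with 200 to 6000 genes and under 2% mitochondrial UMIs were kept, which removed 2161, 16, 18 and 263 nuclei over the mitochondrial limit in C57J 1, C57J 2, nude and BALB/c. Library totals were 102939576, 72912922, 82169638 and 125998527 UMIs. UMIs were summed per library and class and tested with edgeR 4.0.16 in R 4.3.3 (filterByExpr, TMM normalization, quasi-likelihood test, Benjamini-Hochberg adjustment), with DESeq2 1.42.0 as an alternative. Comparisons of classes and of background effects between classes used the library as a block. P-values measure the spread between libraries of pooled mice, and the batch was not a term of the fit. In the comparison of backgrounds this spread holds the difference between nude and BALB/c and that between the C57J batches, and is not that of true replicates. A call needed an adjusted p of less than 0.05 and a log2 fold change of more than 0.5 in either direction. The SE given is the log2 fold change without its sign divided by the square root of the test's F statistic, not an error estimated by the model. Shares have 95% Clopper-Pearson intervals, and a count of 0 was bounded at 3 UMIs over the group. Doublets were scored against simulated pairs of nuclei (2 per nucleus, 2000 genes, 30 components), with 0.8% called per 1000 nuclei, and were kept in the main values. Astrocytes were selected on marker UMIs in the same way as oligodendrocytes.

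Genes named were the 8 largest rises and 8 largest falls called without overlap between backgrounds, every called list gene, the 6 genes of the study, the 3 most abundant members of each list, and the largest rise and fall of each list between classes. Members and lists were chosen with earlier results of these data known. Positions are from GENCODE vM21 on GRCm38. Some genes that this rule names are not reported here. Scripts were tested on simulated data.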

Additional observations from a re-analysis of the deposited data

Results flagged for a closer look

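The background effect (nude and BALB/c over C57J) differed between OPCs and mature oligodendrocytes for 11 genes by the interaction test. Given as the log2 fold change in OPCs minus that in mature oligodendrocytes, the difference was 2.97 for Ppp1cc, 1.90 for Dscaml1, 1.79 for Spock1, 1.49 for Tmtc2 and 1.63 for Ermard. It was -3.61 for Fcho1, -4.22 for Tgfbr2, -3.00 for Ndst4, -2.79 for Gli2, -1.65 for Grik1 and -1.78 for Scrg1. Grik1, a kainate receptor gene, had 495, 492, 352 and 367 CPM in OPCs of C57J 1, C57J 2, nude and BALB/c and 196, 265, 499 and 542 CPM in mature oligodendrocytes. Its backgrounds were thus apart in both classes, in opposite directions. Ndst4, a heparan sulfate enzyme gene, had 34.5, 25.6, 29.6 and 27.1 CPM in OPCs, where the backgrounds overlapped, and 38.7, 43.1, 185 and 423 CPM in mature oligodendrocytes. Against astrocytes the difference was 4.60 for Fam163a.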

How the results depend on the processing

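For the comparison of backgrounds, which called 53 genes, DESeq2 called 25, no filter on low counts 185, removal of predicted doublets 32, thinning to 1500 UMIs 21 and no upper limits in the rule 84. Leaving out 1 library gave 25 (without C57J 1) to 363 (without nude), with 136 without C57J 2 and 78 without BALB/c. Of the 23 genes named there, 9 kept their side of the threshold under every alternative run: 1500004A13Rik, 9030025P20Rik, Cldn34c1, Ebf1, Gm12160, Gm17167, Gm19299, Gm3417 and Lpcat2. Removing predicted doublets gave 432 genes against newly forming oligodendrocytes and thinning gave 1072, while leaving out 1 library gave 1693 to 1885 there and 3379 to 3765 against mature oligodendrocytes.

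The interaction with mature oligodendrocytes (11 genes) gave 6 with DESeq2, 4 with RLE normalization, 124 with no filter, 2 without predicted doublets, 4 when thinned, 3 with 5 marker UMIs and 0.2% of UMIs, 2 without OPCs that met another class rule, and 0 to 836 with 1 library left out (0 without C57J 1, 2 without C57J 2, 836 without nude, 51 without BALB/c). The interaction with astrocytes (1 gene) gave 2 with DESeq2, 104 with no filter, 17 with the stricter marker limit, 3 without upper limits and 0 to 882 with 1 library left out (0 without C57J 1 or C57J 2, 882 without nude, 41 without BALB/c). A lone library was assumed to vary like the other groups, and the cause of these moves was not tested. Of 301 values of the 23 named genes and 156 of the 12 genes with class differences, 0 reversed. None of the 23 overlapped between backgrounds, so leaving out 1 library could hardly reverse them, and most had been picked for this. The setting with adjusted p alone used the same fit, and runs in which a gene was not tested were not counted. This 0 thus says little about stability. None of the 12 stayed called throughout, and 69 of the 156 values lost the call.

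The OPC share in C57J 1, C57J 2, nude and BALB/c was 1.49, 1.31, 1.71 and 2.10% with 5 marker UMIs and 0.2% of UMIs, and 9.85, 10.3, 13.8 and 8.33% of glial nuclei. Thinning to 2000 UMIs, with shallower nuclei left out, gave 2.14, 2.25 and 3.33% for C57J 1, nude and BALB/c, and without upper limits 2.33% in nude and 4.03% in BALB/c. Without upper limits at all UMIs, C57J 1 had 3.15% and BALB/c 4.73%. Leaving out OPCs that met another class rule gave 2.10% in C57J 1 and 2.12% in C57J 2.

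Without the library as a replicate block, 1928 genes were called against newly forming and 3320 against mature oligodendrocytes. These class comparisons were thus paired within library, but for nude and BALB/c against C57J within OPCs no paired analysis was possible because nude and BALB/c have 1 library each, with no number that pairs them with the C57J libraries. The 20 newly forming nuclei of nude and the 304 to 393 OPCs per library limit what low genes can show.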

Other observations

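Several genes called between backgrounds in OPCs lie close together in the genome, as a description chosen after their values were seen. On chromosome 17, Ermard (15041208 to 15090044) follows Gm3417, 9030025P20Rik and Gm3448, and all 4 were higher in nude and BALB/c. Further along chromosome 17, D330041H03Rik (24404649 to 24414542), which was higher, precedes Caskin1 (24488601 to 24508671) and Snhg9 (24719531 to 24719965), which were both lower. On chromosome 11, Gm12160 (45160943 to 45213656), which was higher, follows Ebf1 (44617317 to 45008091), which was lower. On chromosome 8, Inpp4b (81342556 to 82127914) precedes Il15 (82331632 to 82403222), and both were lower.

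Tmem163, a zinc transporter gene chosen after its values were seen, had 245, 243, 48.8 and 56.5 CPM in OPCs of C57J 1, C57J 2, nude and BALB/c and 185, 252, 48.7 and 27.9 CPM in mature oligodendrocytes. It was lower in nude and BALB/c in both classes without overlap. Tafa2, a secreted neuropeptide-like protein gene also chosen in this way, had 523, 557, 875 and 967 CPM in OPCs and was higher there without overlap. After thinning to 1500 UMIs, which left out 0, 10, 11 and 0 OPCs, a Bcas1 UMI was found in 29.1, 39.1, 41.6 and 49.3% of OPCs, lowest in C57J 1 and highest in BALB/c, and in 4.32, 5.07, 3.05 and 2.45% of astrocytes. Its level in OPCs was not called between backgrounds (log2 fold change 0.63, SE 0.18, adjusted p = 0.220 by edgeR).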
